A study of Mus musculus with 6 samples.

Results

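The stretch of mouse chromosome 15 from 59400000 to 62800000 (build mm9) holds Trib1, Myc and Pvt1 together with the gene deserts between and beyond them. It was examined here for binding of T-bet, the T-box transcription factor encoded by Tbx21, in induced regulatory T cells (iTreg cells). The data were peak lists from chromatin immunoprecipitation and sequencing (ChIP-seq), in which a peak is a short interval where the peak caller found more reads than in the background. The members were chosen by position: all peaks that overlapped this 3.4 Mb window were taken. They numbered 62 of the 8925 peaks in the 3 lists: 0 of 78 in T-bet knockout (KO) cells, 50 of 7996 in wild-type (WT) replicate 1 and 12 of 851 in WT replicate 2. The window itself was selected on the number and scores of the peaks in the WT lists, so those counts and scores are descriptions and none was tested.

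The KO group comprised 1 ChIP library and the WT group 2, and 3 input libraries were not analysed here. All cells came from mice labelled Balb/c, 4 to 10 weeks old. The labels do not describe the knockout allele, and they do not say whether the WT replicates came from separate animals or cultures. In every group, sorted naive CD4+ T cells were stimulated with plate-bound antibodies to CD3 and CD28 (10 µg/ml each). TGF-β1 at 33 ng/ml and IL-2 at 20 ng/ml were present for 7 days, so the cells model regulatory T cells made in culture and not those taken from tissue. The same rabbit anti-T-bet serum was used for KO and WT chromatin, and the KO library serves as the background of that serum. Peak lists hold no expression values, so the cell type could not be checked against its markers.

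T-bet is best known for directing T helper 1 differentiation, and it is also found in a subset of regulatory T cells. Myc is a transcription factor that drives growth and proliferation of activated T cells. In mice it is controlled in part by enhancers that lie far from the gene in the surrounding desert, some of which act in blood progenitors and developing T cells. Pvt1 is the long noncoding RNA gene next to Myc and a site of translocation and of retroviral insertion in lymphoid tumours. Trib1 encodes a pseudokinase that brings the COP1 ubiquitin ligase to its substrates, among them the myeloid factor C/EBPα. In the RefSeq annotation of a later build, GRCm38.p6, used here for gene order only, the genes run in the order Trib1, Myc, Pvt1 with rising coordinate, and Pvt1 follows Myc with no annotated gene between them. Between Trib1 and Myc lie 24 annotated genes. Of these, 3 are protein-coding (4933412E24Rik, Lratd2 and A1bg), 8 are long noncoding RNA genes and 10 are pseudogenes. Between Pvt1 and Gsdmc, the next protein-coding gene, lie 8 long noncoding RNA genes and no protein-coding gene. Gene positions in mm9 were not used here, so peaks are given by position and none is assigned to a gene.

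The KO library had no peak anywhere in the window, whereas the WT lists had 50 and 12. None of the 50 WT replicate 1 peaks overlapped a KO peak, against 0.550% of that whole list, and none of the 12 WT replicate 2 peaks did, against 5.41%. Overlap meant at least 1 bp in common. The KO list held 2 peaks on all of chromosome 15, and the nearer lay 22.2 Mb beyond the window with a score of 70.9. A KO list of this length leaves most of the genome empty. At its density over the rest of the autosomes, 0.0300 peaks per Mb, a stretch of this length would hold 0.102 KO peaks, and 713 of 762 other segments of 3.4 Mb (93.6%) held none. The empty KO window therefore does not set this region apart, and with 1 KO library no test between genotypes was possible. The deposited names of the KO and WT replicate 2 lists start with the same number and that of WT replicate 1 with another; the labels do not say what it marks, and in the pair that shares it the window held 0 KO peaks and 12 WT peaks.

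**Figure D1:**
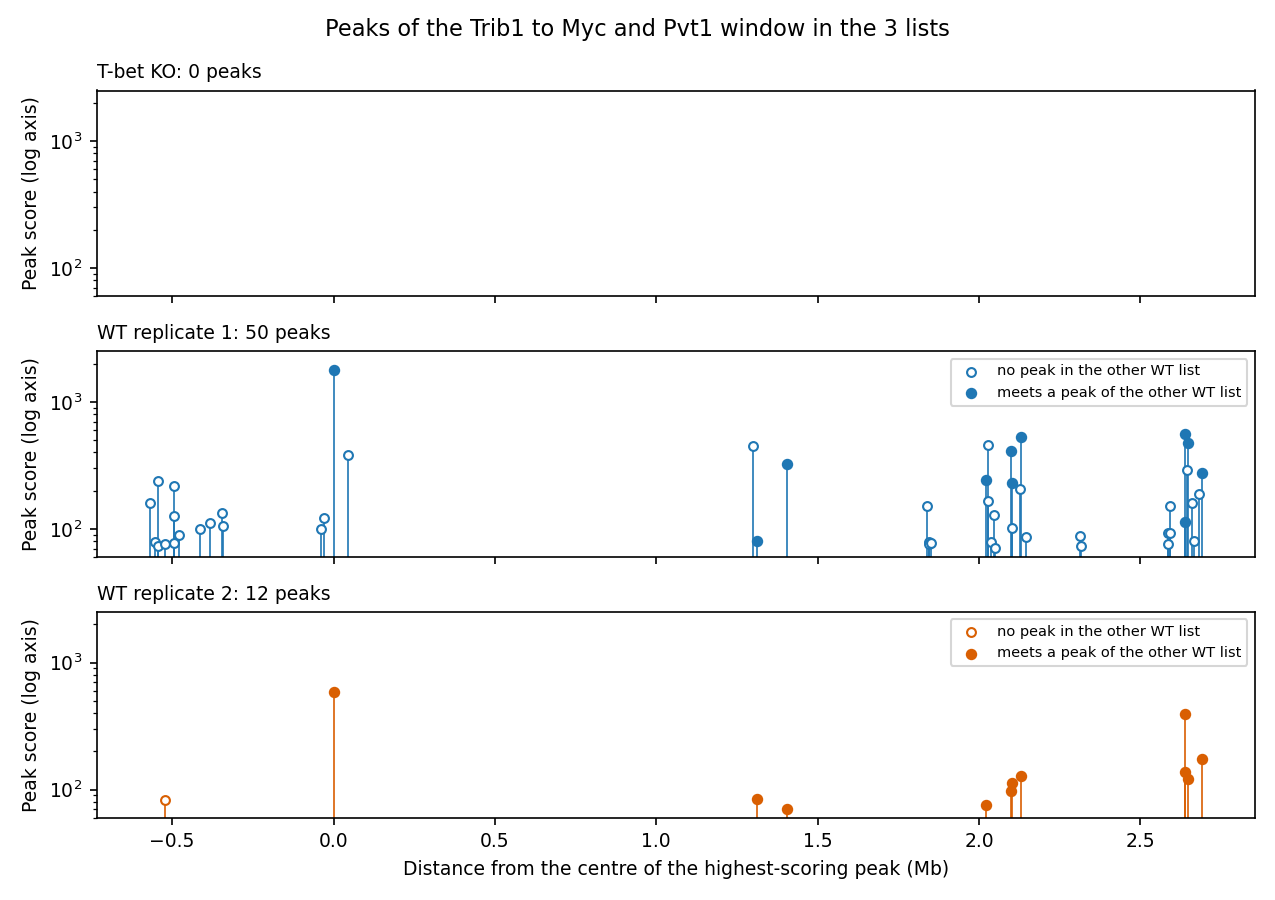
Peak score (log axis) against distance in Mb from the centre of the highest-scoring peak, for the T-bet KO library, WT replicate 1 and WT replicate 2. Filled circles are peaks that meet a peak of the other WT list. The KO panel is empty, the highest peak is the same site in both WT lists, and a stretch of 1.25 Mb to its right holds no peak in any list.

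Among the sites that both WT lists shared and the KO list lacked, the window held the highest of the genome by WT replicate 1 score, and the second highest by WT replicate 2 score. Because the window was selected on WT peak scores, these ranks are a description. In WT replicate 1 this site spanned chr15:59973053-59973778, 726 bp wide, and its score of 1786 ranked 14 of 7996. In WT replicate 2 it spanned chr15:59973057-59973723 with a score of 591, which ranked 8 of 851. The score is the authors' peak caller value for each peak and its scale is not stated, so scores were ranked within a list and heights were not compared between lists. Of the 13 WT replicate 1 peaks that scored higher, 1 met a WT replicate 2 peak, and that 1 also met a KO peak. Of the 7 WT replicate 2 peaks that scored higher, 5 met a KO peak.

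Weaker peaks found in WT replicate 1 alone flanked this site. A peak at chr15:60018838-60019227, 45.6 kb away between centres, had a score of 380. Peaks at chr15:59942737-59942979 and chr15:59933207-59933359 scored 123 and 99.6. None of these met a WT replicate 2 peak. Beyond them, toward higher coordinates, came the longest empty stretch of the window, 1.25 Mb with no peak in any list.

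Joined wherever they lay within 50 kb of each other, the 62 peaks formed 9 groups. A site present in both WT lists occurred in 5 groups, which held 31 WT replicate 1 peaks with scores from 70.9 to 1786 and a median of 164. The other 4 groups held 19 WT replicate 1 peaks with scores from 73.2 to 239 and a median of 89.3. None of these 19 was among the 800 highest-scoring peaks of the list, its highest decile, which began at a score of 263. All 11 window peaks of that decile lay in the groups with a shared site. Of these, 7 were shared sites themselves and lay there by definition, and 4 had no counterpart. The median of 164 likewise includes the 11 shared peaks, whose own median was 323, so the contrast between the groups is partly built in.

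The low end of the window carried many low WT replicate 1 peaks and no shared site. From 59403489 to 59493737 there were 9 WT replicate 1 peaks, with a median score of 89.3 and a highest score of 239 at chr15:59429192-59429430. The next group, from 59559898 to 59631392, had 4, with scores of 99.3 to 133. WT replicate 2 had a single peak in these groups, at chr15:59450007-59450249 with a score of 82.7. It was the only WT replicate 2 member without a counterpart, and the closest WT replicate 1 peak, chr15:59451546-59451700 with a score of 76.0, lay 1296 bp away. A compact set of 3 WT replicate 1 peaks also stood here, from 59479368 to 59480208, with scores of 217, 77.9 and 127.

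After the long gap came 3 WT replicate 1 peaks, of which the highest lacked a counterpart and the lowest had one. The highest, chr15:61273209-61273677, scored 453 and ranked 219 in WT replicate 1, and the nearest WT replicate 2 peak was 12.9 kb away. The weakest, chr15:61286554-61286694, scored 80.8 and ranked 6538, and it met a WT replicate 2 peak at chr15:61286573-61286803 with a score of 83.7. The remaining site, chr15:61378214-61378600, scored 323 in WT replicate 1 and 70.5 in WT replicate 2 (chr15:61378188-61378558), where it ranked 843 of 851. That WT replicate 2 value stood close to the lowest score of its list, 70.1.

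A group of 4 WT replicate 1 peaks from 61813173 to 61823703 had no WT replicate 2 peak. Its scores were 152, 78.3, 75.8 and 77.1. The nearest WT replicate 2 peak began 172.6 kb beyond the last of them. A pair further along, from 62285247 to 62288937, also occurred in WT replicate 1 alone, with scores of 87.9 and 73.2.

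At the high end of the window, 8 of the 11 shared sites lay in 2 groups, the longest of the 9 and those with most peaks. The group from 61996260 to 62119130, 122.9 kb long, held 12 WT replicate 1 and 4 WT replicate 2 peaks, and each of those 4 met a WT replicate 1 peak. The highest was chr15:62102838-62103305, with a score of 525 in WT replicate 1 (rank 147) and 129 in WT replicate 2 (rank 311). The site at chr15:62071576-62071973 scored 408 in WT replicate 1 and 97.1 in WT replicate 2. Only 4.91 kb further, chr15:62076884-62077165 scored 231 in WT replicate 1 and 113 in WT replicate 2. The higher of these neighbours in WT replicate 1 was the lower in WT replicate 2. The site at chr15:61996307-61996716 scored 242 in WT replicate 1 and 75.8 in WT replicate 2. Among the peaks of this group without a counterpart, chr15:62001220-62001741 was the highest, with a score of 454 and rank 218, and the WT replicate 2 peak nearest to it was 4.65 kb away at the site just named.

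The last group, from 62558168 to 62665012, was 106.8 kb long and again held 12 WT replicate 1 and 4 WT replicate 2 peaks, all 4 of them shared. Its WT replicate 2 scores ran from 121 to 395, against 75.8 to 129 in the group before, so the ranges overlapped. Its highest site, chr15:62610467-62610842, scored 556 in WT replicate 1 (rank 124) and 395 in WT replicate 2 (rank 18), the second highest of the window's shared sites in both. It was followed after 1.67 kb by chr15:62612514-62612641, which scored 113 in WT replicate 1 and 138 in WT replicate 2. The site at chr15:62619403-62619723 scored 472 in WT replicate 1 and 121 in WT replicate 2. The site at chr15:62664696-62665000 scored 276 in WT replicate 1 and 173 in WT replicate 2. Within this group only chr15:62617885-62618281 ranked in the highest decile of WT replicate 1 without a counterpart, with a score of 290, and it lay 1.12 kb from the WT replicate 2 peak at chr15:62619403-62619792.

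The edges of the rule fell in stretches without peaks. On the low side the outermost WT replicate 1 member scored 159 (chr15:59403489-59403750), and the closest peak outside scored 150 (chr15:58937563-58937745). On the high side the outermost member was the shared site with a score of 276, and the closest peak outside scored 95.7 (chr15:62954753-62954922). In WT replicate 2 the closest peaks outside scored 348 at chr15:58840999-58841352 and 78.1 at chr15:64215312-64215584.

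The WT replicates were then compared across the window. Of the 12 WT replicate 2 peaks, 11 (91.7%, exact 95% interval 61.5 to 99.8%) met a WT replicate 1 peak, against 85.4% of that whole list. In the other direction, 11 of the 50 WT replicate 1 peaks (22.0%, 11.5 to 36.0%) met a WT replicate 2 peak, against 9.50% of that whole list. The first share was close to its background and the second was higher. Scores in WT replicate 1 were higher mainly in the upper part of their range. Their quartiles were 82.2, 125 and 237 in the window, against 85.6, 108 and 165 in the rest of that list. For WT replicate 2 scores the quartiles were 83.5, 117 and 147, against 84.8, 108 and 153. In WT replicate 1, 11 of 50 window peaks (22.0%) belonged to the highest decile, against 9.93% of the rest of the list. Within that decile 7 of 11 window peaks met a WT replicate 2 peak (63.6%, 30.8 to 89.1%), with 47.1% for all peaks of the decile. Below it 4 of 39 did (10.3%, 2.87 to 24.2%), with 5.32% for all such peaks. Both window shares were above those of the whole list, which lay inside their wide intervals, so at 11 and 39 peaks no difference is claimed. The window was selected on the scores that define the decile, so these shares are a description. The part of the scores in the higher share was not tested. These intervals cover counting error over peaks only, and neighbouring peaks are not independent.

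At the 11 shared sites the libraries marked largely the same bases. These pairs were defined by overlap, which itself limits the distance between midpoints, and no such values are given for pairs elsewhere. Midpoints differed by 6.0 to 94.5 bp (median 25.5 bp) and the overlap measured 122 to 667 bp. In 10 of the 11 pairs it covered at least 50% of both peaks. The exception was chr15:62612514-62612641, whose 128 bp lay wholly inside a WT replicate 2 peak of 329 bp. Median width was 376 bp in WT replicate 1 and 371 bp in WT replicate 2 at these sites. In WT replicate 1 the median score was 323 among members with a counterpart and 102 among the 39 others, and the median widths were 376 and 211 bp. In the rest of the genome the corresponding medians were 261 against 103 in score and 311 against 169 bp in width.

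The order of the shared sites was only loosely the same in both libraries. Across the 11 pairs, Spearman's rho was 0.52 and Pearson's r of the log10 scores 0.68. Without the 2 sites farthest from the median WT replicate 1 score these were 0.25 and 0.29, over 9 pairs. Leaving out extremes narrows the range and can itself lower a correlation. The 749 pairs elsewhere, which were not trimmed, gave 0.36 and 0.37. They involve 716 WT replicate 2 peaks, so some of these enter more than once. All pairs come from the same 2 libraries, and the scores depend on a sequencing depth that the lists do not give.

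**Figure D2:**
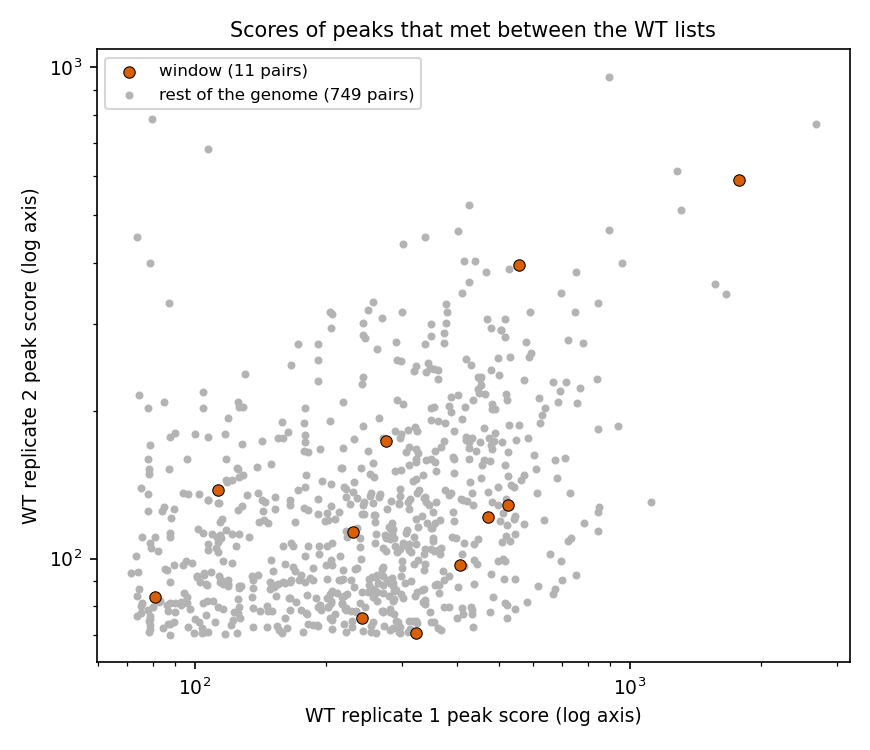
WT replicate 2 score against WT replicate 1 score (log axes) for peaks that met between the lists. Orange points are the 11 pairs of the window and grey points the 749 pairs elsewhere; the window's points lie within the grey cloud, and its highest, with scores of 1786 and 591, lies toward the upper right corner.

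Peaks were several times denser in the window than over the rest of the autosomes in both WT libraries. This is the quantity on which the window was selected, and the values are given as a description. WT replicate 1 had 14.7 peaks per Mb in the window and 3.18 elsewhere, a ratio of 4.63. WT replicate 2 had 3.53 per Mb in the window and 0.334 elsewhere, a ratio of 10.6. The ratios depended on the limits chosen. Both were lower with the window narrowed by 200 kb at each edge, 3.25 in WT replicate 1 and 6.95 in WT replicate 2. Against the rest of chromosome 15 they were 4.79 and 18.6. The window thus held 0.625% of the WT replicate 1 peaks and 1.41% of the WT replicate 2 peaks. The rest of chromosome 15 was sparse in WT replicate 2, with 19 peaks or 0.190 per Mb, so that 12 of its 31 peaks on that chromosome fell in the window.

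**Figure D3:**
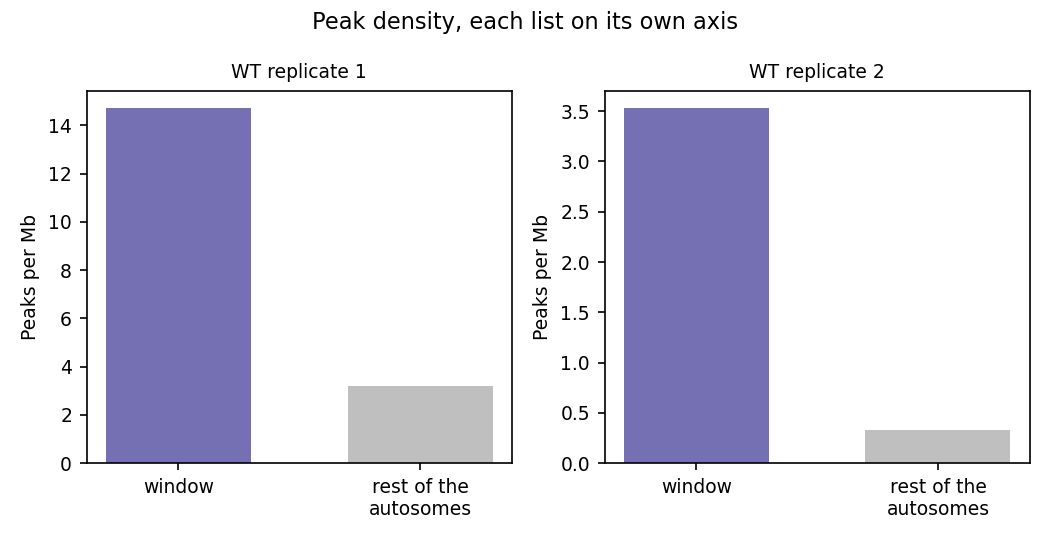
Peaks per Mb in the window and over the rest of the autosomes, for WT replicate 1 and WT replicate 2, each on its own axis from 0. Bars are the deposited peaks divided by length, 14.7 against 3.18 and 3.53 against 0.334; the window was selected for its peaks.

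The same counts were set beside 762 other segments of 3.4 Mb that tile the autosomes and X on a fixed grid. The median segment held 7 WT replicate 1 peaks and 0 WT replicate 2 peaks. Only 3 segments had at least 50 WT replicate 1 peaks and only 1 had at least 12 WT replicate 2 peaks, on chromosome 2 from 125800001 to 129200000. No segment reached both counts. The window was placed around its peaks and the segments were not, so these ranks describe the lists and are no test.

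**Figure D4:**
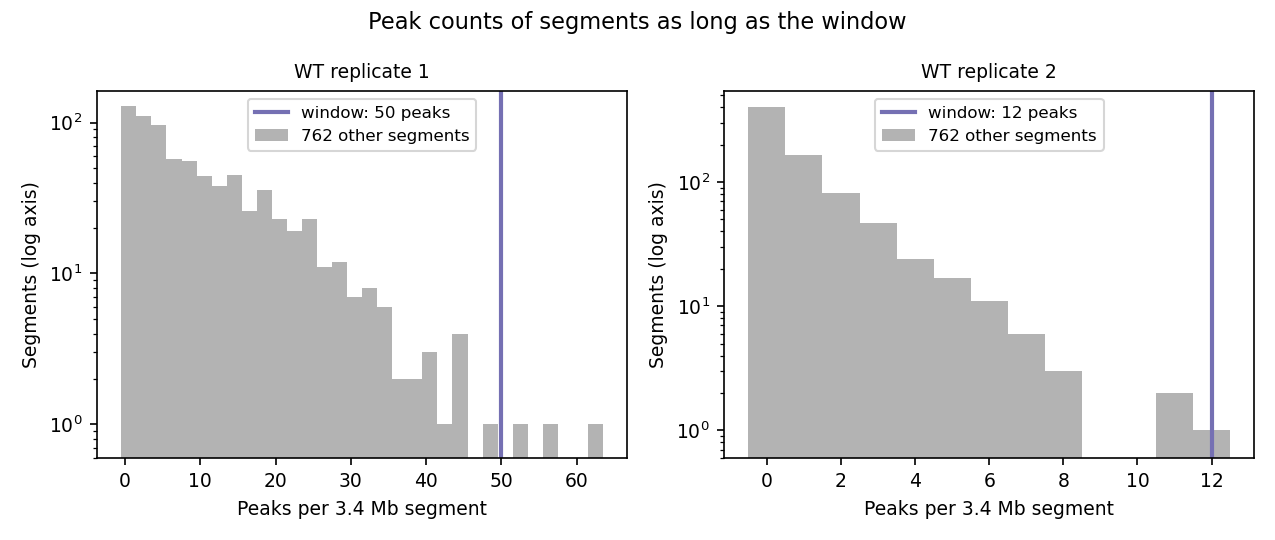
Number of 3.4 Mb segments (log axis) by peak count in WT replicate 1 and WT replicate 2. The vertical line is the window, at 50 and 12 peaks; 3 segments in WT replicate 1 and 1 in WT replicate 2 reach it.

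The spacing of the peaks goes with their density and is given as a description. Another WT replicate 1 peak lay within 50 kb of 49 of the 50 members (98.0%), against 66.4% of the rest of that list, and within 1 kb of 13 (26.0%), against 17.4%. In WT replicate 2, 7 of the 12 members (58.3%) had a neighbour within 50 kb, against 38.9% elsewhere, and none had one within 1 kb, against 4.77%. Among WT replicate 1 peaks with a WT replicate 2 counterpart, 7 of 11 (63.6%) had another such peak within 50 kb, against 41.9% elsewhere. All 7 belonged to the 2 groups at the high end. Of the 39 WT replicate 1 peaks without a counterpart, 27 lay within 50 kb of a WT replicate 2 peak and 6 within 5 kb.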

How the data were processed

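T-bet ChIP-seq peak lists of 1 KO and 2 WT iTreg libraries were used, 1 list per library. CASAVA, Bowtie2, MACS 1.4 and build mm9 are listed in the submitters' processing notes. The peak-calling settings and controls, not given in the sources used here, are unknown. The score per peak was deposited by the authors and its scale is not stated. Reads were 35 or 50 bp long, per the labels' protocols. Read counts and depth per library are unknown, and they limit every comparison of list lengths.

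Samples were grouped by title. Starts were converted to count from 1. Overlaps, groups, ranks and densities were computed with Python 3.11.15, numpy 2.4.6, scipy 1.17.1 and pandas 2.3.3, with mm9 chromosome lengths from GenomeInfoDb 1.38.1; the overlap code was tested on simulated data. Figures were drawn with matplotlib 3.10.9. Named peaks were all WT replicate 2 members, all WT replicate 1 members that met one, and the 10 highest WT replicate 1 members; the few others were picked with their values in view. The window and its genes were chosen with earlier results of these data known. Alternatives were a score of at least 100, merging within 500 bp, window edges moved by 200 kb, other overlap rules, other joining distances and each WT replicate left out. The planned T-box motif search was not run.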

Additional observations from a re-analysis of the deposited data

How the results depend on the processing

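Counts and density ratios were recomputed under 45 combinations of result and setting, and 31 stayed within 1.5 times the value reported. Not all 45 are separate checks. No setting gave a KO peak in the window, and none could, as the nearest lay 22.2 Mb away. With no KO peak, counts of shared sites without KO repeat those of WT replicate 1 peaks met by replicate 2 under the same settings. Scores of at least 100 left 30 WT replicate 1 and 7 WT replicate 2 peaks, and 7 sites shared in either direction and without KO. Narrowing the window by 200 kb at each edge left 31 and 7 peaks, again with 7 shared sites. It lowered the density ratio to 3.25 in WT replicate 1 and to 6.95 in WT replicate 2. The first setting removes low-scoring peaks by construction; the second leaves out all of the lowest group of peaks and parts of the second and the last. Against the rest of chromosome 15 the WT replicate 2 ratio was 18.6. Joining within 25 kb gave 16 groups in place of 9. With 1 WT list left out, the count of WT peaks without a KO peak is by construction that of the other list, 12 without replicate 1 and 50 without replicate 2, against 11 sites in both. The share of WT replicate 2 members met by replicate 1 ranged from 83.3% to 100%. No paired analysis was possible because the KO group has 1 library and the inputs that share numbers with the WT libraries were not analysed here. A site missing from a list is not shown to be unbound.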
